A study of Arabidopsis thaliana with 9 samples.

Results

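The floral repressor genes of Arabidopsis thaliana described across the 9 mRNA libraries of the series are FLC (AT5G10140), SVP (AT2G22540), FLM (AT1G77080), MAF2 (AT5G65050), MAF3 (AT5G65060), MAF4 (AT5G65070), MAF5 (AT5G65080), SMZ (AT3G54990), SNZ (AT2G39250) and TEM1 (AT1G25560). They were chosen by gene ID, and all 10 were found among the 28117 genes of the deposited table. The libraries came from whole seedlings aged 10 days, grown on MS plates at 22 °C under 16 h of light and 8 h of darkness. There were 3 libraries of arid2/3/4 (arid2-/-arid3-/-arid4-/-), 3 of epcr1/2 (epcr1-/-epcr2-/-) and 3 of WT (wild type), with no treatment in any group. ARID2, ARID3 and ARID4 encode proteins with an ARID DNA-binding domain, and EPCR1 and EPCR2 encode Enhancer of polycomb-like proteins. The series title places these proteins in PEAT complexes and names histone deacetylation and heterochromatin silencing. The labels give neither the alleles nor the accession of the plants, and they do not say whether replicates came from separate cultures. The p-values therefore reflect only how much these libraries vary among themselves, and that variation may be technical.

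Floral repressors hold a seedling in its vegetative phase. FLC, SVP and the FLC-like genes FLM (also called MAF1) and MAF2 to MAF5 encode MADS-box transcription factors. FLC and SVP proteins bind the florigen gene FT and the integrator gene SOC1 and keep them low, FLM acts with SVP in the response to ambient temperature, and MAF2 delays vernalization by short cold. SMZ and SNZ encode AP2-like repressors of FT that are themselves held down by the microRNA miR172, and TEM1 encodes a RAV-type repressor of FT and of gibberellin synthesis genes. FLC is a classical target of chromatin regulation, including histone deacetylation, histone methylation and the Polycomb complexes.

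The FLC-like members share stretches of their upstream DNA, shown here because 4 of these 5 genes fell in epcr1/2. The sequences are the 250 bases before each annotated gene start, read from the RefSeq assembly TAIR10.1 on the gene's own strand, 5′ to 3′. They lie at chr1:28955233-28955482 for FLM, chr5:25982004-25982253 for MAF2, chr5:25987059-25987308 for MAF3, chr5:25991943-25992192 for MAF4 and chr5:25997254-25997503 for MAF5, all on the + strand. Capitals mark runs of at least 15 bases shared exactly with another of the genes compared, which were FLM, MAF2 and MAF3 in one set and MAF4 and MAF5 in the other.
FLM: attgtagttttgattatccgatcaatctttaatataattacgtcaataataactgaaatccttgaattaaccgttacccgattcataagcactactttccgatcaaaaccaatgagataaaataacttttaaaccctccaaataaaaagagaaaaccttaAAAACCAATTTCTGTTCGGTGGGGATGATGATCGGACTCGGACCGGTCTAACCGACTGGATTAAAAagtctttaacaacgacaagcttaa
MAF2: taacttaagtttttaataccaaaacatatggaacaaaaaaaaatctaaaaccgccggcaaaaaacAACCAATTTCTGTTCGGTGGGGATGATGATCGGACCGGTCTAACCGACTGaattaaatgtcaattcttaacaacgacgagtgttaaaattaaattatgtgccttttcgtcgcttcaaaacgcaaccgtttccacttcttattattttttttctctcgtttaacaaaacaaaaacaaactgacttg
MAF3: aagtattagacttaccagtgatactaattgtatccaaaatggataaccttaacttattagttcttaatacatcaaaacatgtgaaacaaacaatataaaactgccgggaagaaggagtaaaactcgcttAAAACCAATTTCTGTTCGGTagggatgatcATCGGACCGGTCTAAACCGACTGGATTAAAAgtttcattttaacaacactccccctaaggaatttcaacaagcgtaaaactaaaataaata
MAF4: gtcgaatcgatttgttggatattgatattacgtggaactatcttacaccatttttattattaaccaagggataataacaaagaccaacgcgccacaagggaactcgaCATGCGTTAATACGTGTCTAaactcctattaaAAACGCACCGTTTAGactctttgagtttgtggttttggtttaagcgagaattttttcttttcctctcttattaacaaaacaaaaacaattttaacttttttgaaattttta
MAF5: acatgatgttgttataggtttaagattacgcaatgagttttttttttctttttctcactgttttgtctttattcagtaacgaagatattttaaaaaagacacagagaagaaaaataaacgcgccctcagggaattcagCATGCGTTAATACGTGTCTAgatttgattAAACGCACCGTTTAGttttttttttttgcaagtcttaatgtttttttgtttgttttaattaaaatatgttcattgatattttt
The longest run shared by FLM and MAF2 was 35 bases, and no other of 21167 upstream windows held it. An 18-base run within it, aaccaatttctgttcggt, was also in MAF3, and 3 windows in all held it. MAF4 and MAF5 shared the 20-base run catgcgttaatacgtgtcta, which 2 windows held. FLM lies at chr1:28955483-28960234, and MAF2 to MAF5 lie next to each other on the + strand from chr5:25982254 to chr5:26002619. TRB proteins, the telobox-binding subunits of PEAT, are known to recognise AAACCCTA. That motif, searched on both strands, was in 3.64% of the 21167 windows and in 0 of the 10 members' windows. Its shorter core AAACCCT, which every longer match also contains, was in 6.35% of windows and in 1 member's, that of FLM, at positions -120 to -114 from the gene start. The RY element CATGCA was in 8.01% of windows and in 0 members' windows, and the CArG box, the MADS-box binding motif, was in 2.66% of windows and in 0 members' windows. A motif match is a description of the letters only.

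SMZ and SNZ carry a miR172 site in their coding sequence, shown here because SMZ was the 1 member that rose in both mutants. The first sequence is the mature miR172a of RefSeq TAIR10.1, in DNA letters, with its seed (bases 2 to 8) in capitals. The others are the sites in the transcripts, 5′ to 3′, with capitals marking bases that differ from the full complement of miR172a.
miR172a: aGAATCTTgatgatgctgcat
SMZ: TtgcagcatcatcaGgattcC
SNZ: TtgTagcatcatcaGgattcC
TOE2: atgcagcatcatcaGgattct
The SMZ site, at chr3:20373774-20373794 on the - strand, had 3 such bases, and the SNZ site, at chr2:16389066-16389086 on the - strand, had 4. TOE2, another gene of the AP2 family, had 1, at chr5:24210889-24210909 on the + strand. The best match in the other 8 members had 6 to 8 differing bases and is not shown. Primary miR172 transcripts were too poorly captured for comparison: of 5 MIR172 genes listed in the table, 3 were at 0 in all 9 libraries.

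Transcript levels were in FPKM, that is, corrected for the length of the transcript and the depth of the library, which allows levels of different genes to be set side by side. The steps between the smallest values put the depth at about 16.7 to 26.5 M fragments for the 6 libraries that carry number 1 or 2, and at 49 to 57.1 M for the 3 that carry number 3. Replicates 1 and 2 of a genotype were nearly alike (Pearson r of 0.994 to 0.995 across genes), and replicate 3 stood apart from both in every genotype (r of 0.835 to 0.883). What sets the libraries numbered 3 apart is not given in the labels, so differences are also given within replicates 1 and 2 and within replicate 3. ARID2 was 2.12, 2.15 and 2.06 FPKM in arid2/3/4, against 22.5, 20.1 and 22.5 in WT, and ARID4 (log2 fold change -1.48) and ARID3 (-0.83) were also lower in arid2/3/4 than in WT by limma, though ARID3 did not pass with replicates 1 and 2 averaged (-0.76, limma adjusted p = 0.0742). EPCR1 was 0.344, 0.514 and 1.08 FPKM in epcr1/2, against 11.8, 10.5 and 16.4 in WT. EPCR2 was 10.1, 10.4 and 12 FPKM in epcr1/2, against 8.36, 6.99 and 11.8 in WT, so the mutation of EPCR2 does not show in its transcript level.

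**Figure D1:**
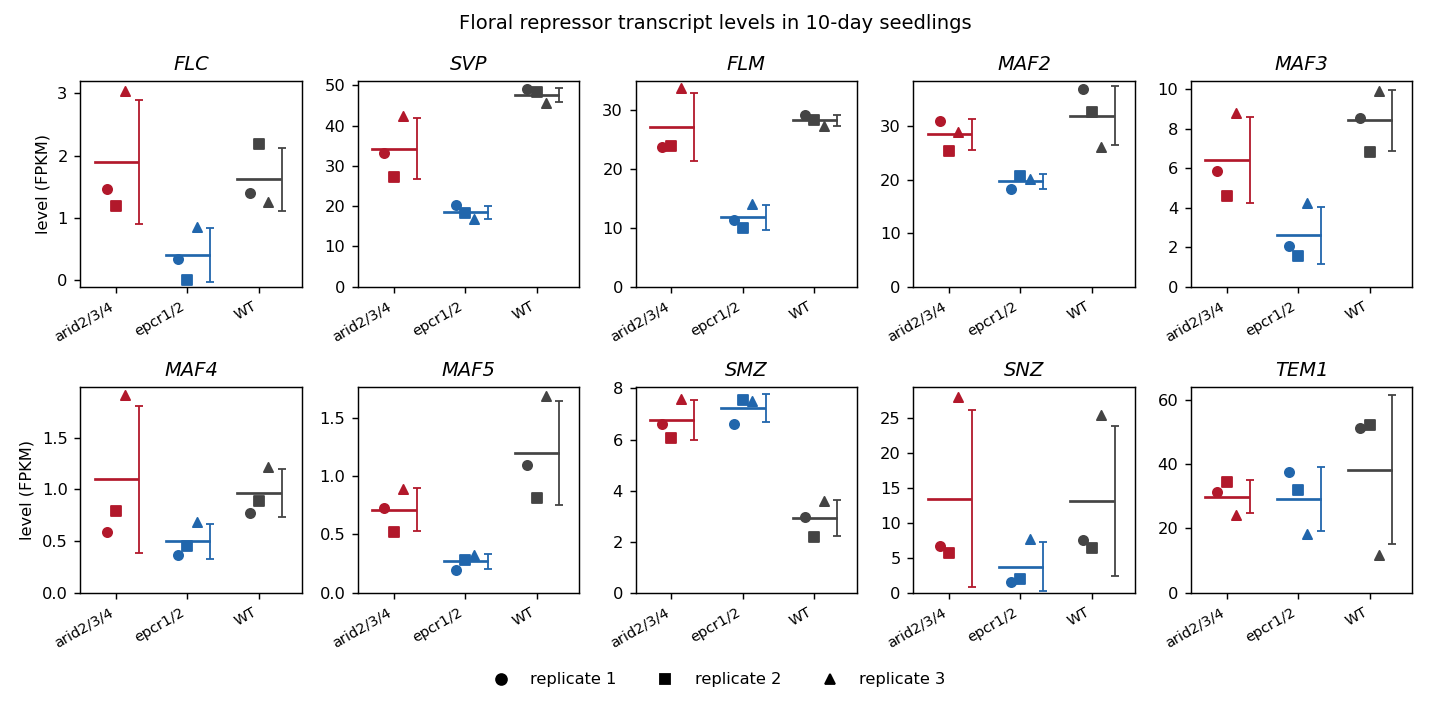
Transcript levels of the 10 floral repressor genes (y axis, FPKM, a separate linear scale for each gene) in arid2/3/4, epcr1/2 and WT seedlings. Points are libraries, with circles, squares and triangles for replicates 1, 2 and 3; lines are means and bars are 1 SD (n = 3). SVP was 16.9 to 20.2 FPKM in epcr1/2, below the 45.7 to 49 FPKM of WT, while SMZ was 6.07 to 7.6 FPKM in both mutants together, above the 2.2 to 3.59 FPKM of WT.

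In WT seedlings the members spanned a wide range of levels. From high to low, the WT means were 47.7 ± 1.74 FPKM for SVP, 38.3 ± 23.2 for TEM1, 32 ± 5.54 for MAF2, 28.4 ± 0.969 for FLM and 13.1 ± 10.7 for SNZ (SD, n = 3). Lower followed MAF3 at 8.43 ± 1.54, SMZ at 2.93 ± 0.697, FLC at 1.62 ± 0.501, MAF5 at 1.2 ± 0.448 and MAF4 at 0.96 ± 0.231 FPKM (SD, n = 3). TEM1, which ran from 11.6 to 52.2 FPKM in WT, overlapped SVP, MAF2, FLM and SNZ. The libraries of MAF2 and FLM, of SNZ and MAF3, and of MAF5 and both FLC and MAF4 overlapped too, so the order of the genes in each of these pairs is not settled. FLC, the best known of the group, was thus among the 3 lowest. The estimated fragments behind it were 32, 45 and 65 in WT replicates 1, 2 and 3, and behind MAF4 in WT they were 18, 18 and 63. Summed over the 10 genes, the level was 130 to 179 FPKM in arid2/3/4, 90.8 to 98.3 in epcr1/2 and 154 to 189 in WT.

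In epcr1/2 seedlings the MADS-box repressors SVP, FLM, MAF2, MAF3 and MAF5 were lower than in WT, and the AP2-like SMZ was higher. Of the 10 members, 5 fell in epcr1/2 against WT, 1 rose and 4 did not pass (FLC, MAF4, SNZ and TEM1) at a limma adjusted p under 0.05. Over all 21168 tested genes, 17.8% fell and 10.8% rose in that comparison, 28.5% in all. The median log2 fold change was -0.86 over the members and -0.12 over all tested genes. The libraries did not overlap for 7 members that were lower and 1 that was higher in epcr1/2, and this held for 46.6% of all tested genes. Fold changes are of FPKM + 1, which understates the change of genes near or below 1 FPKM. All 10 members passed the filter of 0.5 FPKM in at least 3 libraries. FLC and MAF4 passed it mainly, and MAF5 wholly, through the WT and arid2/3/4 libraries. Only 1 epcr1/2 library of FLC, 1 of MAF4 and 0 of MAF5 reached 0.5 FPKM. The call on MAF5 in epcr1/2 is therefore not independent of the filter.

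SVP, the partner through which several MADS-box repressors act, had 20.2, 18.2 and 16.9 FPKM in epcr1/2 replicates 1, 2 and 3, against 49, 48.4 and 45.7 FPKM in WT. Every epcr1/2 library lay far below every WT library, at 0.387 times the WT mean. The log2 fold change was -1.33 ± 0.17 (SE, limma adjusted p = 0.00122), with -1.30 within replicates 1 and 2 and -1.39 within replicate 3. Because whole seedlings were sampled, fewer cells that express a gene and less RNA per cell cannot be told apart, here or for any member.

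FLM, which tunes flowering to ambient temperature together with SVP, had 11.3, 9.94 and 14.1 FPKM in epcr1/2, against 29.3, 28.3 and 27.4 FPKM in WT. The groups did not overlap, and the highest epcr1/2 library was the one numbered 3. FLM fell by 1.21 ± 0.18 on the log2 scale in epcr1/2 (SE, limma adjusted p = 0.00234), with -1.37 within replicates 1 and 2 and -0.91 within replicate 3. FLM has 11 annotated transcripts, whose balance is known to change with temperature, and the values sum over them.

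Within the tandem group, MAF3 had 2.04, 1.54 and 4.25 FPKM in epcr1/2, against 8.56, 6.82 and 9.9 FPKM in WT. All epcr1/2 libraries were below all WT libraries, and replicate 3 was the highest of both genotypes. MAF3, an FLC-like repressor of flowering, fell by 1.44 ± 0.32 on the log2 scale (SE, limma adjusted p = 0.0115), with -1.64 within replicates 1 and 2 and -1.05 within replicate 3. MAF2, its upstream neighbour, had 18.2, 20.8 and 20.2 FPKM in epcr1/2, against 37.1, 32.8 and 26.1 FPKM in WT. The groups did not overlap, but the WT library numbered 3 was the nearest to epcr1/2. MAF2 fell by 0.66 ± 0.16 (SE, limma adjusted p = 0.0178), with -0.81 within replicates 1 and 2 and -0.35 within replicate 3. The call on MAF2 ended without epcr1/2 replicate 1 (-0.60, limma adjusted p = 0.0739), epcr1/2 replicate 2 (-0.70, 0.0512), WT replicate 1 (-0.55, 0.0696) or WT replicate 2 (-0.64, 0.0619). It also ended when each library was centred on its median (-0.48, limma adjusted p = 0.082) and when replicates 1 and 2 were averaged (-0.58, 0.0838).

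MAF5, at the far end of the tandem group, had 0.195, 0.284 and 0.326 FPKM in epcr1/2, against 1.1, 0.817 and 1.69 FPKM in WT. The highest epcr1/2 library was still under the lowest WT library, though an estimated 3.8 to 13 fragments stood behind each epcr1/2 value. MAF5 fell by 0.78 ± 0.17 on the log2 scale (SE, limma adjusted p = 0.0105), with -0.66 within replicates 1 and 2 and -1.02 within replicate 3. With a pseudocount of 0.1 in place of 1 it fell by 1.78. MAF4, between MAF3 and MAF5, had 0.362, 0.448 and 0.686 FPKM in epcr1/2, against 0.772, 0.89 and 1.22 FPKM in WT. These groups did not overlap either, but the difference of -0.39 ± 0.23 did not pass (SE, limma adjusted p = 0.257), and the 95% interval ran from -0.92 to 0.15. A change of MAF4 of the size seen for MAF5 was therefore not excluded by this depth and spread.

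FLC itself had 0.339, 0 and 0.859 FPKM in epcr1/2, against 1.4, 2.19 and 1.26 FPKM in WT. It was listed at 0 in epcr1/2 replicate 2, the library with the lowest estimated depth, and all epcr1/2 values lay below all WT values. The difference of -0.93 ± 0.30 missed the threshold (SE, limma adjusted p = 0.0518), with a 95% interval from -1.63 to -0.24. With the replicate number as a block it passed (limma adjusted p = 0.0278), as did 51.2% of all tested genes, 31.9% being lower. It did not pass when replicates 1 and 2 were averaged within that blocked design (-0.77, limma adjusted p = 0.145), and it passed under 6 of 18 alternatives in all. The difference was -1.26 within replicates 1 and 2 and -0.28 within replicate 3, whose libraries carried the most fragments.

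**Figure D2:**
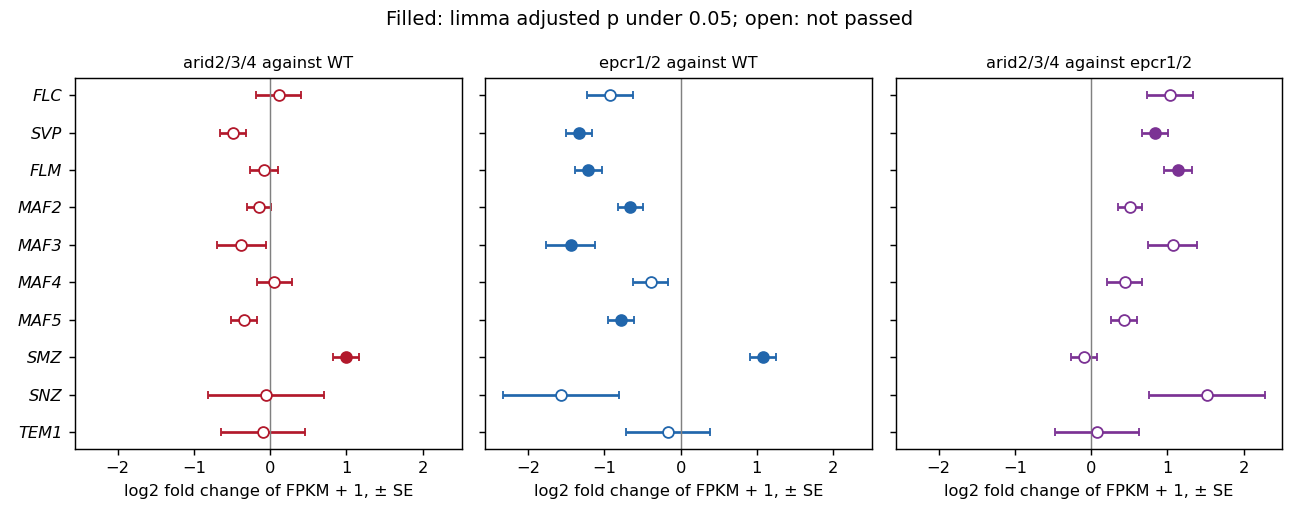
Log2 fold change of FPKM + 1 (x axis, points, bars ± SE from limma, n = 3 libraries a group) of each member in arid2/3/4 against WT, epcr1/2 against WT and arid2/3/4 against epcr1/2. Filled points passed a limma adjusted p under 0.05. For epcr1/2 against WT 5 falls and 1 rise are filled, and for arid2/3/4 against WT the rise of SMZ alone.

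SMZ, an AP2-like repressor of FT, moved the other way. It had 6.59, 6.07 and 7.6 FPKM in arid2/3/4 and 6.59, 7.56 and 7.52 FPKM in epcr1/2, against 2.98, 2.2 and 3.59 FPKM in WT. Each mutant library was above each WT library, and the libraries of the mutants overlapped. SMZ rose by 1.08 ± 0.17 on the log2 scale in epcr1/2 (SE, limma adjusted p = 0.00293) and by 0.99 ± 0.17 in arid2/3/4 (SE, limma adjusted p = 0.00621), 2.47 and 2.31 times the WT mean. Within replicates 1 and 2 and within replicate 3 the rise was 1.18 and 0.89 in epcr1/2, and 1.04 and 0.90 in arid2/3/4. Both comparisons use the same WT libraries. Between arid2/3/4 and epcr1/2 the difference was -0.09 ± 0.17 (SE, limma adjusted p = 0.826), with a 95% interval from -0.48 to 0.31. SMZ overlaps AT3G54980, a pentatricopeptide repeat gene on the opposite strand, by 544 bases, and 23% of its 50-base stretches lie in that gene too. Whether counting used strand is not given in the sources used here, so reads of the overlap cannot be told apart. AT3G54980 did not pass in either mutant, at 0.24 ± 0.16 in arid2/3/4 and 0.21 ± 0.16 in epcr1/2 (SE, limma adjusted p = 0.324 and 0.372).

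SNZ, the closest relative of SMZ, had 1.46, 1.94 and 7.71 FPKM in epcr1/2, against 7.53, 6.37 and 25.4 FPKM in WT. In each genotype the library numbered 3 was several times higher than the others, so the groups overlapped. The difference was -1.57 ± 0.76 (SE, limma adjusted p = 0.161), and it was nearly equal within replicates 1 and 2 (-1.56) and within replicate 3 (-1.60). With the replicate number as a block, which removes the shared shift of the libraries numbered 3, SNZ passed (-1.57 ± 0.14, SE, limma adjusted p = 0.000357). So did 51.2% of all tested genes, 31.9% being lower. SNZ also passed with replicates 1 and 2 averaged within that blocked design (-1.58, limma adjusted p = 0.0145), and under 4 of 19 alternatives in all. In arid2/3/4, SNZ had 6.63, 5.67 and 28 FPKM, and its difference from WT was -0.06 ± 0.76 (SE, limma adjusted p = 0.972). The SNZ values in arid2/3/4 thus followed those of WT library by library.

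TEM1, the RAV-type repressor, had 31.3, 34.3 and 24.1 FPKM in arid2/3/4 and 37.6, 31.9 and 18.2 FPKM in epcr1/2, against 51.1, 52.2 and 11.6 FPKM in WT. The WT library numbered 3 was the lowest of all, and the other WT libraries were the highest. No direction can be read for TEM1. Its difference was -0.09 ± 0.55 in arid2/3/4 and -0.17 ± 0.55 in epcr1/2 (SE, limma adjusted p = 0.935 and 0.863), and in both mutants it was negative within replicates 1 and 2 (-0.64 and -0.56) and positive within replicate 3 (1.00 and 0.62). In TEM2, its paralog, the WT library numbered 3 also lay far below the other WT libraries, with 28.2, 27.8 and 36.5 FPKM in arid2/3/4 and 19.4, 19.3 and 19.8 in epcr1/2, against 114, 119 and 27.9 in WT. TEM2 passed in epcr1/2 (-1.85 ± 0.49, SE, limma adjusted p = 0.026), but not without epcr1/2 replicate 1 (-1.84, limma adjusted p = 0.0771), epcr1/2 replicate 2 (-1.84, 0.0766), epcr1/2 replicate 3 (-1.86, 0.053), WT replicate 1 (-1.52, 0.0908) or WT replicate 2 (-1.49, 0.0854). It also did not pass with replicates 1 and 2 averaged (-1.50, limma adjusted p = 0.146) or with only these groups fitted (-1.85, 0.0548).

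In arid2/3/4 against WT, SMZ was the only member that passed. The other 9 members did not, with 20.8% of all tested genes passing in either direction, 8.78% higher and 12.0% lower. The members' median log2 fold change was -0.09, and that of all tested genes was -0.05. Libraries did not overlap for SMZ (higher) and SVP (lower), against 37.2% of all tested genes (16.6% higher and 20.7% lower). SVP had 33.2, 27.3 and 42.4 FPKM in arid2/3/4, against 49, 48.4 and 45.7 FPKM in WT. The arid2/3/4 library numbered 3 came close to WT, while the others were clearly below it. The difference was -0.49 ± 0.17 (SE, limma adjusted p = 0.0824), and it passed with the replicate number as a block (limma adjusted p = 0.044), as did 25.7% of all tested genes in that direction and 45.1% in either. It did not pass when replicates 1 and 2 were averaged within that blocked design (-0.39, limma adjusted p = 0.272), and it passed under 4 of 19 alternatives in all. The difference was -0.67 within replicates 1 and 2 and -0.11 within replicate 3.

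None of FLC and the FLC-like members passed in arid2/3/4. FLM had 23.8, 23.9 and 33.8 FPKM in arid2/3/4, with a difference from WT of -0.08 ± 0.18 (SE, limma adjusted p = 0.811) and a 95% interval from -0.50 to 0.34. MAF2 had 31.1, 25.4 and 29 FPKM in arid2/3/4, with a difference of -0.15 ± 0.16 (SE, limma adjusted p = 0.559). In both genes the arid2/3/4 and WT libraries overlapped. Their differences were negative within replicates 1 and 2 (-0.26 for FLM and -0.30 for MAF2) and positive within replicate 3 (0.29 and 0.14). With array weights both passed as lower (-0.26 and -0.30, limma adjusted p = 0.0191 and 0.0341). FLM also passed as lower in replicates 1 and 2 only (-0.26, limma adjusted p = 0.0248). MAF3 had 5.85, 4.57 and 8.8 FPKM in arid2/3/4 (-0.38 ± 0.32, SE, limma adjusted p = 0.452). MAF5 had 0.725, 0.525 and 0.893 FPKM in arid2/3/4 (-0.35 ± 0.17, SE, limma adjusted p = 0.181). The 95% intervals of MAF3, from -1.11 to 0.35, and of MAF5, from -0.73 to 0.04, leave room for falls as well as for none. MAF4 had 0.588, 0.791 and 1.91 FPKM in arid2/3/4 (0.05 ± 0.23, SE, limma adjusted p = 0.909). FLC had 1.46, 1.19 and 3.04 FPKM in arid2/3/4 (0.11 ± 0.30, SE, limma adjusted p = 0.846). For FLC and MAF4 the arid2/3/4 library numbered 3 was the highest of the 9, and both genes had a negative difference within replicates 1 and 2 (-0.25 and -0.12) and a positive one within replicate 3 (0.84 and 0.39).

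**Figure D3:**
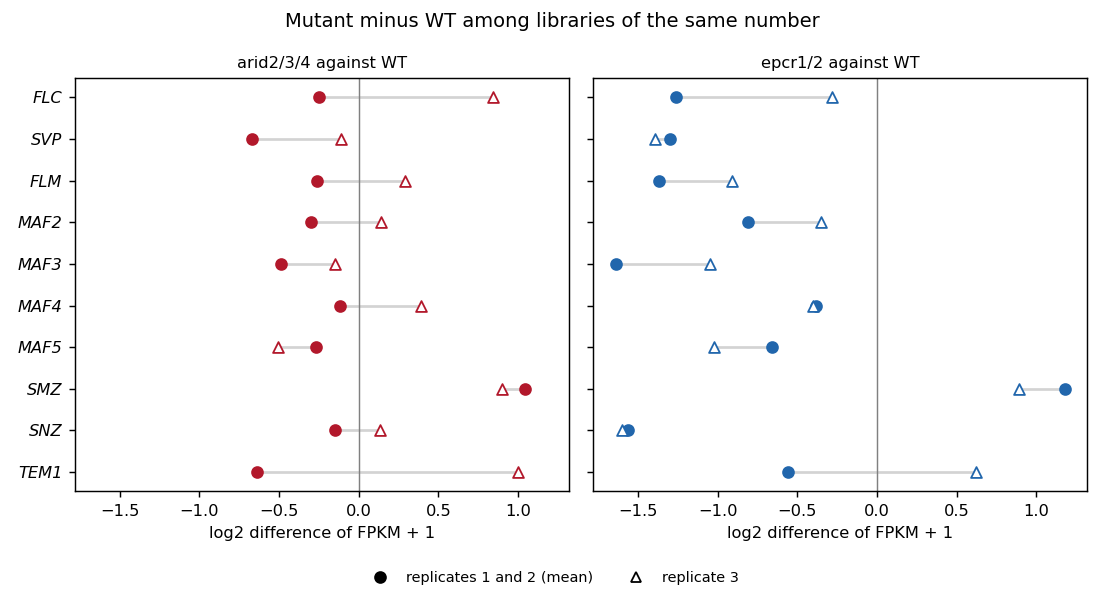
Mutant minus WT difference of log2(FPKM + 1) (x axis) of each member, computed within replicates 1 and 2 (filled circles, difference of means) and within replicate 3 (open triangles, 1 library against 1). In epcr1/2 against WT 9 of 10 members had the same sign in both, TEM1 being the exception, while in arid2/3/4 against WT 4 of 10 did.

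Setting the mutants against each other tests whether their effects differ. SVP and FLM were higher in arid2/3/4 than in epcr1/2, and the other 8 members did not pass, against 5.71% of all tested genes that were higher, 4.77% lower and 10.5% in either direction. FLM was 27.1 ± 5.73 FPKM in arid2/3/4 and 11.8 ± 2.12 in epcr1/2 (SD, n = 3 each), a log2 difference of 1.14 ± 0.18 (SE, limma adjusted p = 0.00864). SVP was 34.3 ± 7.59 FPKM in arid2/3/4 and 18.4 ± 1.7 in epcr1/2 (SD, n = 3 each), a log2 difference of 0.84 ± 0.17 (SE, limma adjusted p = 0.02). The call on SVP ended without arid2/3/4 replicate 1 (0.85, limma adjusted p = 0.0739), epcr1/2 replicate 1 (0.91, 0.0585) or epcr1/2 replicate 2 (0.84, 0.083), and when only these groups were fitted (0.84, 0.0612). With replicates 1 and 2 averaged neither gene passed (0.95, limma adjusted p = 0.1 for SVP and 1.15, 0.073 for FLM). Libraries of 6 members did not overlap and were higher in arid2/3/4 (FLC, SVP, FLM, MAF2, MAF3 and MAF5), against 30.3% of all tested genes in either direction and 17.7% higher in arid2/3/4. With the replicate number as a block 7 members were higher in arid2/3/4, against 16.8% of all tested genes and 28.5% in either direction. The 5 added by the block were SNZ (1.52, limma adjusted p = 0.00139), MAF3 (1.07, 0.00359), FLC (1.04, 0.0328), MAF2 (0.51, 0.0428) and MAF5 (0.43, 0.0463). None of these 5 passed when replicates 1 and 2 were averaged within the blocked design (limma adjusted p of 0.0552 for SNZ to 0.207 for MAF5).

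The summed levels of leaf, root and shoot meristem markers differed between each mutant and WT, while the leaf sums of arid2/3/4 and epcr1/2 overlapped. Of 7 leaf markers, 3 fell and 0 rose in epcr1/2, and 2 fell and 0 rose in arid2/3/4, while 6 fell in each with the replicate number as a block. Their summed level was 7900 to 19900 FPKM in arid2/3/4, 5760 to 20500 in epcr1/2 and 23500 to 36200 in WT. Of 9 root markers tested, 8 fell and 0 rose in epcr1/2, and 6 fell and 0 rose in arid2/3/4; the sum over all 10 was 34.1 to 50.4 FPKM in arid2/3/4, 17.1 to 33 in epcr1/2 and 85 to 137 in WT. PIN2, a root auxin transporter, was 0.341 to 0.544 FPKM in epcr1/2, against 8.59 to 8.9 FPKM in WT. Of 8 shoot meristem markers, 7 rose and 0 fell in epcr1/2, and 2 rose and 0 fell in arid2/3/4, with 4 rising in arid2/3/4 under the block. Their sums were 28.8 to 49.8 FPKM in arid2/3/4, 84.1 to 116 in epcr1/2 and 15.6 to 20.6 in WT. STM, which keeps meristem cells undifferentiated, was 38.9, 37.8 and 19.4 FPKM in epcr1/2, against 3.38, 4.25 and 2.09 FPKM in WT. The meristem markers WUS and CLV3 reached 0.5 FPKM in no WT library and passed the filter through the mutants. CLV3 was listed at 0 in WT replicate 1 and WUS in WT replicates 1 and 3, and no other marker was at 0 in a library. Beside these counts, 17.8% of all tested genes fell and 10.8% rose in epcr1/2, and 12.0% fell and 8.78% rose in arid2/3/4. With the block 31.9% fell in epcr1/2, and 25.7% fell and 19.4% rose in arid2/3/4. In arid2/3/4 the call on STM held under 8 of 19 alternatives, and those on the leaf markers GLK2 and LHCB6 under 10 and 12. The arid2/3/4 calls on the meristem marker CUC1 and the root markers PIN2 and CASP1 held under all 19. In epcr1/2 the call on the leaf marker LHCA1 held under 10 of 19, and those on STM, GLK2 and LHCB6 under 19, 19 and 18. The part of these tissue markers in the levels of the repressors was not tested.

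**Figure D4:**
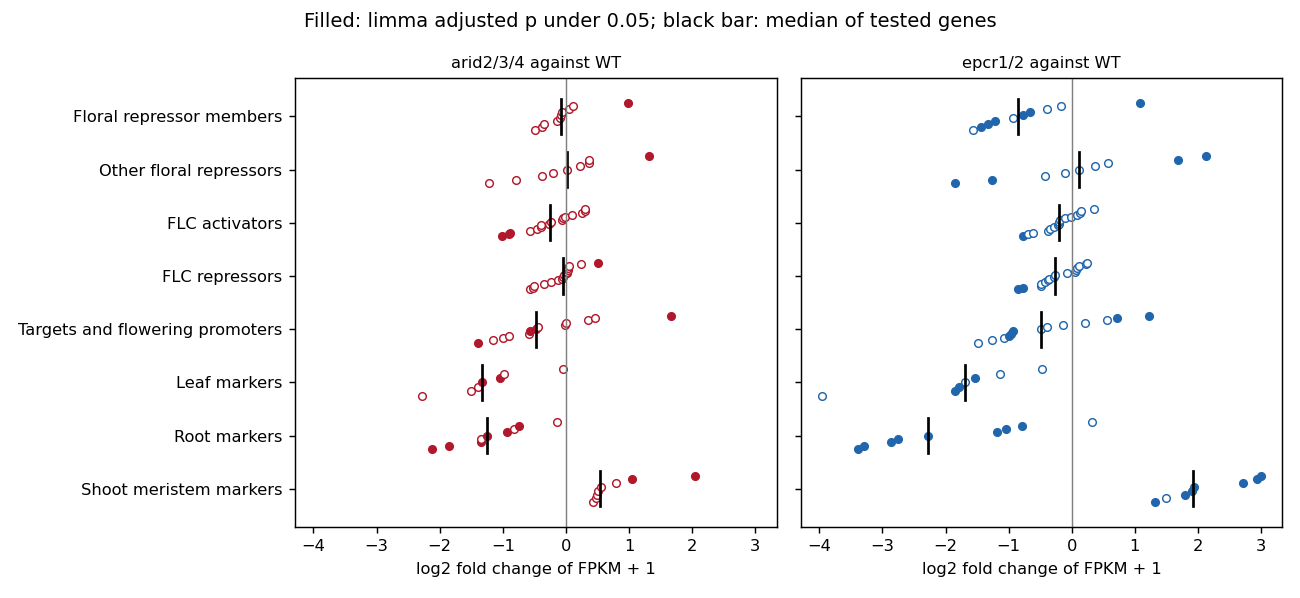
Log2 fold change of FPKM + 1 (x axis) of the tested genes of each list in arid2/3/4 against WT and epcr1/2 against WT; each point is a gene, filled where the limma adjusted p was under 0.05, and black bars are list medians. The members' median is -0.86 in epcr1/2 and -0.09 in arid2/3/4, and the shoot meristem markers lie to the right in epcr1/2 with a median of 1.92.

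Among the regulators of FLC, some passed in each mutant. Of 16 FLC activators, 1 fell (SDG8) and 0 rose in epcr1/2 (median -0.20), and 3 fell and 0 rose in arid2/3/4 (median -0.25). Of all tested genes, 17.8% fell in epcr1/2 (median -0.12) and 12.0% fell in arid2/3/4 (median -0.05). With the replicate number as a block, 3 activators fell and 1 rose in epcr1/2, and 7 fell and 1 rose in arid2/3/4, against 51.2% and 45.1% of all tested genes in either direction. The 3 without a block were ATX1, a histone H3K4 methyltransferase, ARP6, a subunit of the SWR1 complex that deposits H2A.Z, and FES1, a protein of the FRIGIDA complex. ATX1 was 1.41, 1.55 and 1.7 FPKM in arid2/3/4, against 4.36, 3.88 and 3.06 FPKM in WT (-0.89 ± 0.14, SE, limma adjusted p = 0.00484). That call ended with replicates 1 and 2 averaged (-0.82, limma adjusted p = 0.0681). ARP6 fell by 1.01 and FES1 by 0.91 on the log2 scale. The calls on these genes ended without arid2/3/4 replicate 1 (limma adjusted p = 0.0773 for ARP6 and 0.0602 for FES1) or replicate 2 (0.0786 and 0.0661), and that on ARP6 with only these groups fitted (0.0504). Of 16 tested FLC repressors, 2 fell (FVE and REF6) and 0 rose in epcr1/2 (median -0.27), and 0 fell and 1 rose (HDA6) in arid2/3/4 (median -0.04). Without the block 10.8% of all tested genes rose in epcr1/2 and 8.78% in arid2/3/4. With the block, 6 FLC repressors fell and 1 rose in epcr1/2, and 2 fell and 1 rose in arid2/3/4. The shares of all tested genes with the block were 31.9% lower and 19.3% higher in epcr1/2, and 25.7% lower and 19.4% higher in arid2/3/4. The calls on SDG8, REF6 and HDA6 held under 14, 10 and 8 of 19 alternatives. FVE, an autonomous pathway protein that keeps FLC low and acts with histone deacetylases, was 22.3, 22.5 and 18.5 FPKM in epcr1/2, against 42.3, 41.7 and 33.7 FPKM in WT (-0.86 ± 0.14, SE, limma adjusted p = 0.00369). In arid2/3/4, where FVE was 41.5, 39.1 and 37.4 FPKM, its libraries overlapped those of WT.

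Other floral repressors moved in both directions. Of 9 tested, 2 rose (ATC and AGL15) and 2 fell (TEM2 and TOE3) in epcr1/2, and 1 rose (ATC) and 0 fell in arid2/3/4. The shares of all tested genes were 10.8% higher and 17.8% lower in epcr1/2, and 8.78% higher and 12.0% lower in arid2/3/4. With the replicate number as a block 3 rose and 2 fell in epcr1/2, and 2 rose and 1 fell in arid2/3/4. The 1 that fell was TFL1 (-0.79, limma adjusted p = 0.012 with the block). TFL1 reached 0.5 FPKM in 0 arid2/3/4 libraries and entered the test through epcr1/2 and WT, so that call is not independent of the filter. Of all tested genes, 51.2% and 45.1% passed in either direction with that block. ATC, a relative of the floral repressor TFL1, was 37.8, 34.7 and 49.7 FPKM in arid2/3/4 and 78.8, 74.1 and 62.2 FPKM in epcr1/2, against 12.7, 12.7 and 23.5 FPKM in WT. The 3 groups did not overlap, with epcr1/2 the highest. ATC rose by 1.31 ± 0.26 in arid2/3/4 (SE, limma adjusted p = 0.0103) and by 2.12 ± 0.26 in epcr1/2 (SE, limma adjusted p = 0.000946). With replicates 1 and 2 averaged it did not pass in arid2/3/4 (1.25, limma adjusted p = 0.0722). AGL15, a MADS-box repressor of FT that is also active in embryos, was 6.49, 8 and 8.39 FPKM in epcr1/2, against 1.34, 1.27 and 2.52 FPKM in WT (1.69 ± 0.23, SE, limma adjusted p = 0.00155). Among the AP2-like genes with a miR172 site, TOE1, TOE2 and AP2 did not pass in either mutant, though TOE2 passed with the block (0.37, limma adjusted p = 0.0339 in arid2/3/4 and 0.57, 0.00625 in epcr1/2). AP2 differed from WT by -0.20 ± 0.16 in arid2/3/4 and by -0.42 ± 0.16 in epcr1/2 (SE, limma adjusted p = 0.427 and 0.0935). TOE3 passed in epcr1/2 (-1.27 ± 0.33, SE, limma adjusted p = 0.0249), a call that ended without any 1 of 5 libraries, namely epcr1/2 replicates 1 and 2 (limma adjusted p = 0.0865 and 0.0862) and WT replicates 1, 2 and 3 (0.0634, 0.06 and 0.0678).

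Among 13 tested targets and promoters of flowering, 3 fell and 2 rose in epcr1/2, and 3 fell and 1 rose in arid2/3/4, with a median of -0.48 in both. Of all tested genes, 17.8% fell and 10.8% rose in epcr1/2, and 12.0% fell and 8.78% rose in arid2/3/4. With the replicate number as a block 6 fell and 3 rose in epcr1/2, and 7 fell and 1 rose in arid2/3/4. Under that block 31.9% of all tested genes fell and 19.3% rose in epcr1/2, and 25.7% fell and 19.4% rose in arid2/3/4. FT was 0.0619, 0 and 0.131 FPKM in arid2/3/4 and 0.228, 0.755 and 0.255 in epcr1/2, against 2.04, 3.25 and 0.664 in WT, so this main target of the repressors was low in the mutants, with epcr1/2 replicate 2 above WT replicate 3. FT passed as lower in arid2/3/4, at 0.0325 times the WT mean (limma adjusted p = 0.0192). In epcr1/2, at 0.208 times the WT mean, FT passed only just (limma adjusted p = 0.0496). FT reached 0.5 FPKM in 0 arid2/3/4 libraries, 1 epcr1/2 library and 3 WT libraries, so its calls as lower are not independent of the filter. Whether the calls on FT held under the alternatives was not tested. SOC1 was 5.36, 4.58 and 20.8 FPKM in arid2/3/4 and 5, 5.21 and 8.94 in epcr1/2, against 10.3, 9.26 and 42.6 in WT. It did not pass (-0.90, limma adjusted p = 0.394 in arid2/3/4 and -1.26, 0.208 in epcr1/2), but did with the block (limma adjusted p = 0.0379 and 0.00988). AP1, a floral meristem identity gene, was 0.844, 0.631 and 0.648 FPKM in epcr1/2, against 0.0345, 0 and 0.0812 FPKM in WT. AP1 is among the 2 that rose in epcr1/2, but it reached 0.5 FPKM in the epcr1/2 libraries alone and entered the test through them, so its call is not independent of the filter. The other was SEP3, which was also the 1 that rose in arid2/3/4. SEP3 rose by 1.23 ± 0.35 in epcr1/2 (SE, limma adjusted p = 0.0333) and by 1.66 ± 0.35 in arid2/3/4 (SE, limma adjusted p = 0.0143). Those calls held under 12 and 17 of 19 alternatives. GA3OX2, a gibberellin synthesis gene, fell by 0.93 ± 0.14 in epcr1/2 (SE, limma adjusted p = 0.00203), and SPL9, which promotes the adult phase, fell by 0.96 ± 0.17 (SE, limma adjusted p = 0.00445). GA3OX2 reached 0.5 FPKM in 0 epcr1/2 libraries and entered the test through WT and arid2/3/4, so its call is not independent of the filter either. SPL9 and GA3OX2 were also among the falls in arid2/3/4 (-0.57 and -0.48, limma adjusted p = 0.0468 and 0.0419). Those arid2/3/4 calls held under 6 of 19 and 5 of 18 alternatives, while the epcr1/2 calls on these genes held under 19 of 19 and 18 of 18.

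The genes next to the members did not follow one pattern. Beside FLC lies AT5G10130, a gene of the Ole e 1 allergen and extensin family, which was 2.87, 3.17 and 1.44 FPKM in arid2/3/4 and 1.21, 0.728 and 0.336 FPKM in epcr1/2, against 14.3, 18.1 and 10.3 FPKM in WT. It fell by 2.13 ± 0.30 in arid2/3/4 (SE, limma adjusted p = 0.00261) and by 3.11 ± 0.30 in epcr1/2 (SE, limma adjusted p = 0.000371), while FLC did not pass in either without the block. On the other side AT5G10150, annotated as UPSTREAM OF FLC protein, was 6.83, 5.56 and 5.28 FPKM in epcr1/2, against 11.4, 10.9 and 13.4 in WT (-0.91 ± 0.20, SE, limma adjusted p = 0.0122), a call that ended without epcr1/2 replicate 2 (limma adjusted p = 0.0509). Downstream of FLM, AT1G77090, a thylakoid lumenal protein gene, was 26.3, 24 and 33.2 FPKM in epcr1/2, against 46.1, 46.1 and 47.6 in WT (-0.73 ± 0.15, SE, limma adjusted p = 0.0087), a call that ended with replicates 1 and 2 averaged (-0.68, limma adjusted p = 0.0742). On the other side of FLM, AT1G77060, a phosphoenolpyruvate carboxylase family gene, was 8.3, 9.13 and 16.5 FPKM in epcr1/2, against 30, 34.3 and 35.7 in WT (-1.54 ± 0.39, SE, limma adjusted p = 0.021). That call ended without epcr1/2 replicate 1 (limma adjusted p = 0.0801), epcr1/2 replicate 2 (0.0766) or WT replicate 1, 2 or 3 (0.0541, 0.0638 and 0.0541). TON1A, on the side of SMZ away from AT3G54980, was 14.2, 13.9 and 14.6 FPKM in epcr1/2, against 17.6, 19.7 and 25.9 in WT (-0.52 ± 0.16, SE, limma adjusted p = 0.0431), and passed under 8 of 19 alternatives. The flanks of the MAF2 to MAF5 group did not pass in epcr1/2, at -0.55 ± 0.36 for AT5G65040 and 0.90 ± 0.30 for BST1 (SE, limma adjusted p = 0.303 and 0.0603), though BST1 passed with the block (limma adjusted p = 0.018). Both genes beside SVP, AT2G22530 and NET2D, also did not pass in epcr1/2, with or without the block, nor did those beside TEM1 (AT1G25550 and AT1G25570) and SNZ (AT2G39240 and AT2G39260). In arid2/3/4 AT5G10150 (-0.72, limma adjusted p = 0.0403) and AT2G39240 (0.74, 0.0414) passed too, under 10 of 19 and 9 of 18 alternatives, and AT2G39240 reached 0.5 FPKM in the arid2/3/4 libraries alone.

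**Figure D5:**
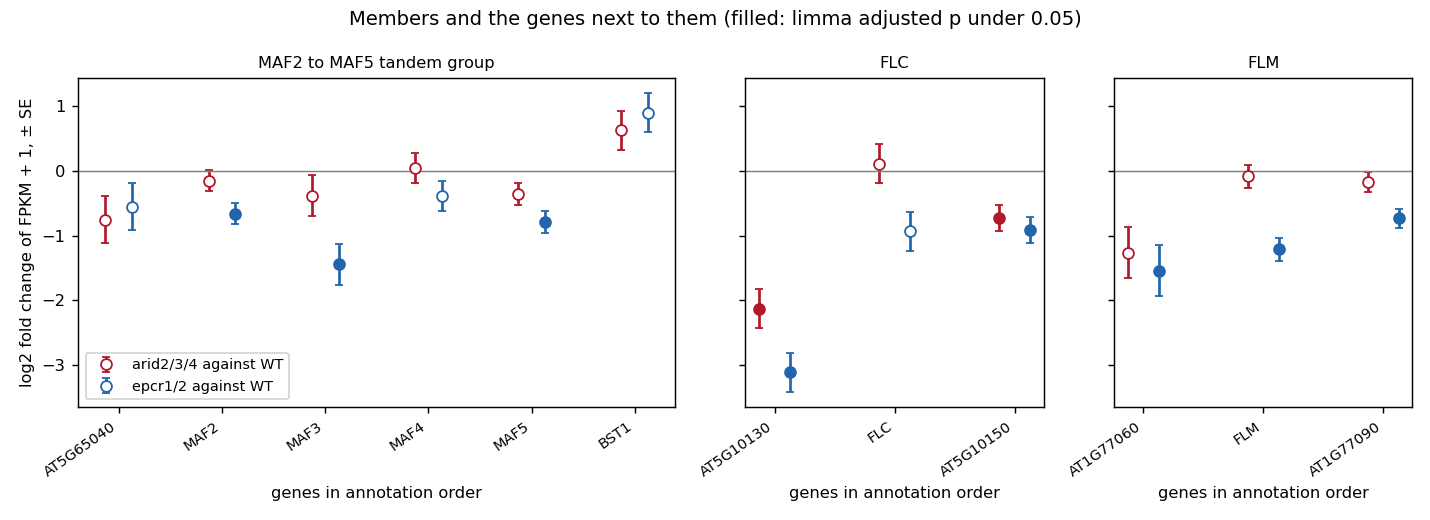
Log2 fold change of FPKM + 1 (y axis, points, bars ± SE from limma, n = 3 libraries a group) in arid2/3/4 against WT and epcr1/2 against WT for the MAF2 to MAF5 group, FLC and FLM and the genes on either side, in annotation order. Filled points passed a limma adjusted p under 0.05; AT5G10130 beside FLC has the lowest values, -2.13 in arid2/3/4 and -3.11 in epcr1/2.

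The FLC-like genes shared few stretches that could place a read in more than 1 of them. Of all 50-base stretches of the transcripts, 1.66% were shared with another gene in MAF3 (with FLM and MAF2), 0.374% in MAF2, 0.25% in FLM, and 0% in FLC, SVP, MAF4 and MAF5. FLC overlaps the noncoding gene AT5G01675 on the opposite strand, where reads cannot be told apart if strand was not used.

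Across the 9 libraries, many genes had profiles close to those of the members, so a high correlation is not particular to them. Pearson r of log2(FPKM + 1) with SVP was 0.9 or more for 602 tested genes, and the highest was 0.989 for AT5G60030, an uncharacterized protein gene. For FLM there were 535 such genes, led by CRTISO, the carotenoid isomerase (0.989), for MAF2 there were 246, led by AT1G03370 (0.995), for MAF3 937, led by AK-HSDH II (0.989), and for MAF5 701, led by XLG3 (0.995). SMZ had 421 such genes, led by TRFL10 (0.987), a TRF-like gene, and FLC had 83, led by AT5G20110, a dynein light chain gene (0.978). These points share genotype, library and depth, and the highest of 21168 genes are bound to be high.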

How the data were processed

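Expression was measured by mRNA sequencing of total RNA in 9 libraries, 3 each of arid2/3/4, epcr1/2 and WT. The authors deposited 1 table of gene values whose header names no unit. The values were read as FPKM, deposited by the authors, because the column sums differ (762788 to 919799) and small values fall on steps set by transcript length. Per the submitters' processing notes, STAR 2.5.2b, Cuffdiff and the TAIR10 build were used; annotation and strand setting are not given in the sources used here. No counts were used, so no counting interval is given, and fragment numbers are estimates from the steps.

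The 21168 genes that reached 0.5 FPKM in 3 or more libraries were fitted as log2(FPKM + 1) with limma 3.58.1 in R 4.3.3, with a mean per genotype over all 9 libraries, a variance trend and Benjamini-Hochberg adjustment over all tested genes. The threshold was an adjusted p of 0.05, whatever the fold. The procedure was tested on simulated data. Gene names, positions and sequences came from RefSeq TAIR10.1, in which 27839 IDs were matched by locus tag.

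Replicate numbers 1 to 3 recur in every genotype. Residuals about the genotype means correlated by 0.635 to 0.835 in all 9 same-number pairs, over the limit of 0.1, but also by 0.66 to 0.765 between replicates 1 and 2 of different genotypes, and by -0.817 to -0.682 between replicate 3 and the others. The numbers therefore set replicate 3 apart, and a fit with the number as a block was run beside the main one.

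The members and gene lists were chosen with earlier results of these data known. All members and mutated genes are named, with the neighbouring genes, the nearest profile of FLC and of each member that passed, and up to 4 passing genes of each list, to which FT and SOC1 were added for their role; among these the text leans to genes whose calls held. Alternatives changed the pseudocount, filter, scaling, weights, samples and replicates.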

Additional observations from a re-analysis of the deposited data

How the results depend on the processing

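Calls on SVP, FLM, MAF3, MAF5 and SMZ in epcr1/2, and on SMZ in arid2/3/4, held under each of the 18 or 19 alternatives that gave a value; at a filter of 2 FPKM FLC, MAF4 and MAF5 were not tested. For arid2/3/4 against WT, the 4399 genes and 1 member became 9545 and 2 with a replicate block, 13934 and 7 with array weights, 13671 and 4 in replicates 1 and 2 only, and 2003 genes with replicates 1 and 2 averaged; leaving out 1 library gave 2169 to 7064 genes and 1 to 2 members. For epcr1/2 against WT, the 6039 genes and 6 members became 10832 genes with a replicate block, 14648 and 10 with array weights, and 13755 and 10 in replicates 1 and 2 only; leaving out 1 library gave 3708 to 7575 genes and 5 to 7 members. The block also passed FLC and SNZ there. For arid2/3/4 against epcr1/2, the 2218 genes and 2 members became 6039 and 7 with a replicate block, 12518 and 8 with array weights, 1477 and 1 with only these groups fitted, 11396 and 8 in replicates 1 and 2 only, and 49 and 0 with replicates 1 and 2 averaged; leaving out 1 library gave 834 to 3284 genes and 1 to 4 members. Averaging leaves fewer samples; the cause of the other moves was not tested. Signs turned only where the member had not passed. In arid2/3/4 against WT, SNZ became 0.01 centred and 0.02 quantile-normalized and ranged from -0.73 to 0.52 when 1 library was left out (0.23 and 0.33 without arid2/3/4 replicates 1 and 2, 0.52 without WT replicate 3). FLC became -0.16 and MAF4 -0.11 with array weights, -0.25 and -0.12 in replicates 1 and 2 only, and -0.16 and -0.21 without arid2/3/4 replicate 3; FLC reached 0.28 without arid2/3/4 replicate 2, and MAF4 was -0.02 without WT replicate 1. FLM became 0.01 with replicates 1 and 2 averaged and lay between -0.24 and 0.00 when 1 library was left out (0.00 without arid2/3/4 replicate 1 or 2). TEM1 became 0.18 averaged, 0.05 without arid2/3/4 replicate 3, 0.24 and 0.26 without WT replicates 1 and 2, and -0.78 without WT replicate 3. In epcr1/2 against WT, TEM1 became 0.01 centred, 0.03 averaged, 0.13 without epcr1/2 replicate 3, 0.17 and 0.18 without WT replicates 1 and 2, and -0.86 without WT replicate 3. In arid2/3/4 against epcr1/2, TEM1 became -0.03 centred, -0.02 quantile-normalized and with array weights, -0.08 in replicates 1 and 2 only, -0.03 without arid2/3/4 replicate 2, -0.22 without epcr1/2 replicate 3 and 0.28 without epcr1/2 replicate 1. Centring moved the median of all genes by up to 0.18 and quantile normalization by up to 0.12; with either, MAF3 passed between the mutants (0.96 and 0.97, limma adjusted p = 0.0399 and 0.0394). Estimated fragments of 0 to 173 behind FLC, MAF4 and MAF5 limit what can be said of them.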
